A study of Mus musculus with 10 samples.

Results

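The 8-base sequences (8-mers) that hold TGACGT on either strand are the cAMP response element (CRE) half-sites with an intact CG dinucleotide at their centre. An 8-mer was a member if it or its reverse complement contained these 6 bases, a rule that used no measured value, and 48 of the 32896 8-mers on the array met it. The core stood first in 16 members, in the middle in 16 and last in 16. Binding was measured on protein binding microarrays, glass slides carrying short double-stranded DNA probes in a DeBruijn design, which places each short sequence in many contexts. Binding was tested for 3 mouse bZIP DNA-binding domains, GST-tagged and made in a cell-free system: CREB1, CEBPB(V285A) and CREB1(A297V). Each mutant carries a single amino acid exchange. The 10 arrays formed 5 groups of 2: each of the 3 proteins on unmethylated DNA, and both mutants on DNA treated for 3 h with M.SssI, an enzyme that methylates the cytosine of CG dinucleotides. Each protein is an isolated domain in vitro, with no full-length protein, partner or chromatin. Neither wild-type CEBPB nor CREB1 on methylated DNA was analysed here. The title of the series asks about the likeness of CEBPB(V285A) and CREB1.

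Proteins of the bZIP family bind DNA as dimers, and each partner reads one of the half-sites of a palindrome. CREB1 is the classical CRE-binding factor of cAMP signalling, and the palindromic CRE joins a TGACG half-site with its reverse complement around a shared CG. CEBPB binds a related palindrome built from the half-site TTGCG. PAR-type bZIP factors bind the half-site TTACG. The CG at the centre of all these sites can carry 5-methylcytosine on both strands.

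The members below include the highest and the lowest of the family and several between. In each sequence, written 5′ to 3′, the core is in capitals and the flanking bases are in lower case.
Full palindromic CRE octamer: TGACGTca
CRE half-site joined to a TTACG half-site on the other strand: TGACGTaa
Highest member with the core in the middle: gTGACGTa
The member above with A in place of the leading G: aTGACGTa
The same leading G, followed by C: gTGACGTc
Highest member with the core last: gaTGACGT
Core followed by GG: TGACGTgg
Core followed by GA: TGACGTga
Leading C, followed by C: cTGACGTc
Leading T, followed by T: tTGACGTt
Lowest member with the core in the middle: tTGACGTg
Lowest member with the core last: ctTGACGT
Highest and lowest refer to the mean of the 5 group means. The reverse complement of TGACGTaa holds TTACGT, so this member also counts among the 48 8-mers with the PAR-type core.

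The score of an 8-mer was computed from the spot signals. It is the median over its probes of the log2 signal, corrected for position on the slide, then centred on the median of all 8-mers of the array and divided by their scaled median absolute deviation (a robust Z-score). A Z of 0 is the typical 8-mer. Values are given as mean ± SD with n = 2 arrays. Of 40330 probes, 572 held the core. The full octamer lay on 19 probes and every other member on 32 to 37. Members overlap and share these probes, so they are not independent measurements. Nothing in the labels says that replicate arrays came from separate protein preparations, so p-values cover the variation among these arrays, which may be technical.

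Median spot signal ran from 345 to 1857 per array and signal over background from a median of 1.79 to 5.10. The range was narrowest on the unmethylated CREB1(A297V) arrays, their top 8-mer reaching log2 values of 2.79 and 2.68 over the array median while the other arrays reached 4.73 to 6.05. Probes kept the slide positions of the first array at 100% on all arrays except those of methylated CREB1(A297V), where 0% did. By the identifiers in the deposited names, CREB1 and unmethylated CREB1(A297V) shared one array identifier, unmethylated CEBPB(V285A) had another, and both methylated groups shared another. Identifier and group cannot be told apart in comparisons of groups with different identifiers. Slide layout and group cannot be told apart in comparisons with methylated CREB1(A297V). Over the members, replicate arrays correlated at 0.947 to 0.988 (across 48 8-mers that share probes).

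CREB1 and CEBPB(V285A) on unmethylated DNA scored high over the whole family, whereas CREB1(A297V) scored high at a few members and lower at the rest. On the CREB1 arrays the members ran from 4.56 to 29.1 with a median Z of 13.0, and from 5.32 to 32.5 with a median of 15.3. All 48 had a Z of at least 3 on both arrays, a level that 2.12% and 3.41% of all 8-mers reached. Of the 50 highest 8-mers of these arrays, 31 and 30 were members. On the CEBPB(V285A) arrays the members ran from 4.89 to 24.6 (median 12.7) and from 4.11 to 24.1 (median 12.3), again with all 48 at 3 or more against 3.70% and 3.33% of all 8-mers, and 23 and 26 of the 50 highest 8-mers were members. On the CREB1(A297V) arrays the range was 0.453 to 15.6 (median 2.60) and 0.964 to 21.4 (median 4.69). Here 17 and 36 members reached 3, a level that 1.18% and 2.32% of all 8-mers reached, and 6 and 6 were among the 50 highest.

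On methylated DNA CEBPB(V285A) scored lower at the members than on unmethylated DNA, and both methylated CREB1(A297V) arrays had a higher median than the unmethylated ones, though not more members at 3 or among the 50 highest on every array. For CEBPB(V285A) the members ran from 1.85 to 21.9 (median 8.65) and from 2.40 to 20.1 (median 7.88), with 47 and 46 at 3 or more, where 3.40% and 3.25% of all 8-mers were. For CREB1(A297V) they ran from 2.00 to 21.3 (median 6.06) and from 1.10 to 24.9 (median 4.97), with 40 and 35 at 3 or more, where 2.66% and 3.14% of all 8-mers were. The methylated CREB1(A297V) arrays held 7 and 4 members among their 50 highest 8-mers, against 18 and 17 for methylated CEBPB(V285A). The counts from the authors' deposited scores were 31 and 30 for CREB1, 25 and 25 for CEBPB(V285A), 4 and 6 for CREB1(A297V), 20 and 17 for methylated CEBPB(V285A), and 7 and 4 for methylated CREB1(A297V).

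The full octamer, TGACGTca, stood at 29.1 and 32.5 on the CREB1 arrays, where it was the highest of all 8-mers. On the CEBPB(V285A) arrays it stood at 23.3 and 23.1, and after methylation at 19.1 and 18.6. On the CREB1(A297V) arrays it stood at 12.7 and 16.4, and after methylation at 21.3 and 21.9. The 4 mutant groups lay below CREB1 on every array, and the unmethylated CREB1(A297V) pair was the lowest. As a signal, this member was 28.5-fold the array median with CREB1. It was 26.3-fold with CEBPB(V285A) and 29.6-fold after methylation. With CREB1(A297V) it was 3.58-fold and 19.3-fold.

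The member TGACGTaa changed place with the octamer between the proteins. Its Z was 19.3 and 23.1 for CREB1, rank 3 among all 8-mers on both arrays. It was 24.6 and 24.1 for CEBPB(V285A) and 15.6 and 21.4 for CREB1(A297V). On methylated DNA it was 21.9 and 20.1 for CEBPB(V285A), and 20.7 and 24.9 for CREB1(A297V). It lay below the octamer on both CREB1 arrays and above it on 7 of 8 mutant arrays, the exception being methylated CREB1(A297V) replicate 1. As a share of the octamer's score on the same array it was 66.5% and 71.0% for CREB1, 106% and 104% for CEBPB(V285A), and 123% and 131% for CREB1(A297V). These shares are ratios of log2 signals over the array median, so the divisor of each array's Z cancels. Background was not subtracted from the signals and does not cancel. Under 5 other ways of scoring the log2 signals, TGACGTaa stayed at 65.4% to 81.4% of the octamer on the CREB1 arrays and above it on all 4 unmethylated mutant arrays. The authors' deposited scores, on a linear scale, gave 24.8% and 39.4% for CREB1 and over 100% on the same 4 mutant arrays.

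The same scale separated the proteins over the rest of the family. The median of the other 47 members was 44.7% and 46.5% of the octamer's score for CREB1 and 53.9% and 52.0% for CEBPB(V285A). It was 20.1% and 28.3% for CREB1(A297V). On methylated DNA it was 45.1% and 42.1% for CEBPB(V285A), and 28.5% and 22.6% for CREB1(A297V). On this scale both CREB1(A297V) groups lay below every array of the other groups. With the authors' deposited scores the unmethylated CREB1(A297V) arrays were not separated, standing at 9.73% and 13.0% against 11.8% and 15.8% for CREB1 and 14.4% and 10.6% for methylated CEBPB(V285A). The ranges of CREB1 and of methylated CEBPB(V285A) touched, and unmethylated CEBPB(V285A) lay above both. A share over members chosen together carries no test here.

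The base before the core set much of the level. With the core in the middle, members starting with G averaged 19.5 ± 2.53 for CREB1, those with A 17.9 ± 2.32, with C 12.3 ± 1.71 and with T 7.96 ± 1.52 (4 members per base). For CEBPB(V285A) these means were 17.1 ± 1.65, 16.3 ± 0.580, 11.5 ± 0.822 and 7.88 ± 0.803. For CREB1(A297V) they were 5.55 ± 2.70, 5.63 ± 2.45, 2.90 ± 0.972 and 2.50 ± 0.652. G or A was highest and T lowest on all 10 arrays. When members differing in this base alone were paired, those with G exceeded those with T in 4 of 4 pairs on both arrays of each of the 5 groups. Between G and A the order was not uniform: for CREB1, 3 of 4 pairs were higher with G on both arrays, and for methylated CEBPB(V285A) 2 of 4 were higher with A and 0 with G. With the core last, T was lowest on 8 arrays and C on 2.

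The tTGACGTg member shows the low end. Its Z was 4.56 and 5.71 for CREB1, 5.47 and 4.55 for CEBPB(V285A), and 0.453 and 0.964 for CREB1(A297V). On methylated DNA it was 3.02 and 2.42 for CEBPB(V285A), and 2.14 and 1.88 for CREB1(A297V). Replacing its leading T by G, as in gTGACGTg, gave 16.8 and 20.1 for CREB1 and 2.84 and 6.83 for CREB1(A297V). For CREB1(A297V) the tTGACGTg score was 4.73% ± 1.65 of the octamer's, and for CREB1 it was 16.6% ± 1.34.

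The base after the core gave a second ordering. With the core first, the means for A, C, G and T were 18.1 ± 2.34, 16.2 ± 2.04, 12.3 ± 1.71 and 10.1 ± 2.05 for CREB1, the C class including the octamer. Without the octamer the C class fell to 11.3 ± 1.91 over 3 members. A was highest on all 10 arrays with and without the octamer. With it, T was lowest on 6 arrays and G on 4, and without it T on 6, C on 3 and G on 1. For CREB1(A297V) the A class stood at 8.44 ± 2.28 and the C class without the octamer at 2.34 ± 1.45, with G at 2.55 ± 0.951 and T at 3.09 ± 1.34. At the base 2 after the core, A was highest and C lowest on all 10 arrays. This base matches the last base of the octamer and of TGACGTaa. Its A class, which holds both, stood at 17.8 ± 2.23 and its C class at 10.8 ± 2.02 for CREB1. For CREB1(A297V) they stood at 9.66 ± 2.39 and 2.19 ± 0.961. The rest of the A class is TGACGTta and TGACGTga, at 10.4 ± 1.95 and 8.58 ± 1.91 for CREB1, both below its C class mean. For CREB1(A297V) they stood at 3.87 ± 1.58 and 1.76 ± 1.30. The high A class for CREB1 therefore rests on the octamer and TGACGTaa. At the base 2 before the core, G was highest and C lowest on all 10 arrays, with a smaller span of 15.5 ± 2.03 to 12.3 ± 1.89 for CREB1.

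The position of the core in the 8-mer mattered less. For CREB1 the means with the core first, in the middle and last were 14.2 ± 2.04, 14.4 ± 2.02 and 13.8 ± 2.04, a difference within the spread between arrays. For methylated CREB1(A297V) they were 7.27 ± 0.262, 6.48 ± 0.682 and 5.54 ± 0.921. The class with the core first holds the octamer and TGACGTaa. On single probes without the octamer, the place of the core in the 35-base variable region moved the signal. For CREB1 the median was 1.98 ± 0.05 log2 units above the array median for cores starting at bases 1 to 10, 2.48 ± 0.07 at bases 11 to 20 and 1.25 ± 0.09 at bases 21 to 30. The same fall at bases 21 to 30 was seen in all 5 groups. The members' mean start differed little, from 12.5 to 17.2, since each averages over its probes.

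Adding one base on the left of the core-first members gave 64 contexts of 9 bases, each on 7 to 9 probes. The full order of the base before the core varied with the bases after it, but the first place always went to A or G. With CG after the core, C ranked above A for CREB1 and unmethylated CEBPB(V285A). In 16 of 16 following dinucleotides A or G was highest and T or C lowest, in each of the 5 groups. T was lowest in 13 of 16 for CREB1 and in 8 of 16 for unmethylated CREB1(A297V), C being lowest in the other 8. The contexts below set the octamer beside TGACGTaa after G and A, with one octamer context that has T before it.
G before, followed by AA: gTGACGTaa
A before, followed by AA: aTGACGTaa
A before, octamer: aTGACGTca
G before, octamer: gTGACGTca
T before, octamer: tTGACGTca
The context gTGACGTaa had a median signal of 4.72 ± 0.14 log2 units over the array median with CREB1. With CEBPB(V285A) it reached 5.38 ± 0.05, and with CREB1(A297V) 3.95 ± 0.11. On methylated DNA it was 6.13 ± 0.27 for CEBPB(V285A) and 5.76 ± 0.35 for CREB1(A297V). For CREB1 it lay below gTGACGTca, at 5.22 ± 0.16, whereas for CREB1(A297V) gTGACGTca reached 2.40 ± 0.15. The octamer's contexts differed in level as well. The octamer is a palindrome, so a probe was read on both strands and can count in a context for each. These contexts therefore share probes, and the part of the leading base was not tested. For CREB1, aTGACGTca stood at 5.14 ± 0.04 and tTGACGTca at 3.79 ± 0.11, and for CREB1(A297V) at 2.51 ± 0.01 and 1.15 ± 0.07. The context aTGACGTaa stood at 3.60 ± 0.01 for CREB1 and 5.33 ± 0.23 for CEBPB(V285A), and at 6.32 ± 0.24 for CEBPB(V285A) on methylated DNA.

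The signal of the octamer varied between single probes, which differ in surrounding sequence and in the octamer's place; the parts of these and of spot noise were not tested. The octamer lay on 19 probes, starting at bases 2 to 28 of the variable region. Shown here, with the octamer in capitals, are the highest probe, the one of median rank and the lowest by the mean over the 5 groups.
Highest: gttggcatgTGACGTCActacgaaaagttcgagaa
Median rank: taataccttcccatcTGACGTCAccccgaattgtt
Lowest: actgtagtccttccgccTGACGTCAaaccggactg
The highest probe read 5.85 and 5.66 log2 units over the array median for CREB1, 6.53 and 6.24 for CEBPB(V285A), and 4.58 and 4.94 for CREB1(A297V). The lowest read 2.48 and 2.46 for CREB1, 2.91 and 2.12 for CEBPB(V285A), and 0.66 and 0.57 for CREB1(A297V). The probes were chosen by these same values, so their order is a description. On methylated DNA the highest probe read 6.81 and 7.01 for CEBPB(V285A) and 6.07 and 6.60 for CREB1(A297V), and the lowest 1.21 and 2.02, and 1.95 and 1.22. The probe of median rank read 4.55 and 4.50 for CREB1 and 1.86 and 1.91 for CREB1(A297V).

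Members stood above the related 8-mers that lack the last base of the core. The 144 8-mers with TGACG followed by another base had a median Z of 4.88 ± 1.14 for CREB1, against 14.2 ± 1.62 for the members. For CEBPB(V285A) the medians were 5.31 ± 0.545 and 12.5 ± 0.289, and for CREB1(A297V) 0.919 ± 0.633 and 3.65 ± 1.476. The 48 8-mers with TTACGT, 1 of them shared with the members, had a median of 6.78 ± 1.00 for CREB1 and 8.71 ± 0.644 for CEBPB(V285A), below the members in both. For CREB1(A297V) the order was not resolved, at 4.09 ± 0.968 for TTACGT and 3.65 ± 1.476 for the members. On methylated DNA the TTACGT 8-mers had a median of 8.05 ± 0.354 for CEBPB(V285A) and 6.21 ± 0.722 for CREB1(A297V), within 1 unit of the members at 8.27 ± 0.540 and 5.52 ± 0.777. The 256 8-mers with the C/EBP half-site TTGCG had a median of 0.501 ± 0.0286 for CREB1 and 1.19 ± 0.0614 for CEBPB(V285A).

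Differences between groups were tested with limma over all 32896 8-mers, two-sided, with Benjamini-Hochberg adjustment over all of them, and a call means an adjusted p under 0.05. Differences of Z are given with their standard error (SE). Comparisons that share a group share its arrays. Replicates deviated from their group means by amounts that grew with the level, and the fit's expected spread followed the level.

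CEBPB(V285A) was set against CREB1 on unmethylated DNA to ask how alike they bind the CRE half-site. Of the 48 members 0 were called higher and 0 lower, where 3.66% of all 8-mers were called higher and 2.66% lower. The median difference was -0.836 (all 8-mers 0.00563), with 14 members positive and 34 negative. At an unadjusted p below 0.05 in limma, 0 were higher and 2 lower, TGACGTca and TGACGTac, named after their values were seen. The octamer was lower by the largest amount, at -7.58 ± 3.05 (SE, adjusted p = 0.144), with a 95% interval of -13.9 to -1.22. The most positive was TGACGTaa, at 3.11 ± 3.19 (adjusted p = 0.612), with an interval of -3.54 to 9.76. The missing calls do not show equal binding. The direction depended on the scale: with the log2 signal over the array median in place of Z, 20 members were called higher and 0 lower (13.3% of all 8-mers called in either direction), and with normexp background correction 0 were higher and 40 lower (6.51% of all 8-mers).

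CREB1(A297V) scored lower over the family than CREB1 did. Of the 48 members 47 were called lower and 0 higher, against 10.8% and 8.25% of all 8-mers, with a median difference of -9.71 (all 8-mers 0.0221). The most negative difference was that of the octamer, at -16.3 ± 3.05 (SE, adjusted p = 0.00104). The smallest was that of TGACGTaa, at -2.75 ± 3.19 (adjusted p = 0.589), the member not called, and its sign turned without unmethylated CREB1(A297V) replicate 1 (0.135) and with quantile normalization (2.41). Members starting with G before the core had a median difference of -14.2, those with A -12.5, with C -9.14 and with T -5.48, in the order of their levels with CREB1. Both groups share an array identifier, and a fit of these 4 arrays alone called 46 members lower, with 7.92% of all 8-mers called in either direction. The octamer's own call was lost in that fit (adjusted p = 0.152). Among the 144 8-mers with TGACG and another base 141 were lower, and among the 48 with TTACGT 21 were lower. Signal over background was 2.76 and 1.79 on the CREB1(A297V) arrays against 5.10 and 3.54 on the CREB1 arrays. The part of this in the result was not tested.

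The mutants differed in the same way on unmethylated DNA. CEBPB(V285A) was higher than CREB1(A297V) at 47 members and lower at 0, against 14.1% and 11.6% of all 8-mers, with a median difference of 8.49 (all 8-mers -0.00625). The most positive was gTGACGTc. Its Z was 19.8 and 17.0 on the CEBPB(V285A) arrays and 3.02 and 6.67 on the CREB1(A297V) arrays, which do not overlap, a difference of 13.6 ± 2.10 (SE, adjusted p = 0.000130). The octamer differed by 8.70 ± 3.05 (adjusted p = 0.0412), and this call was lost without any 1 of 7 arrays, among them both CEBPB(V285A) arrays and CREB1(A297V) replicate 1 of this comparison. The least positive was ctTGACGT, at 2.31 ± 0.546 (adjusted p = 0.00430). It stood at 4.89 and 4.11 against 1.59 and 2.80. The member not called was again TGACGTaa. Among the 144 8-mers with TGACG and another base 138 were higher and 0 lower. Among the 48 with TTACGT 38 were higher and 0 lower, and among the 256 with TTGCG 150 were higher and 1 lower.

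CEBPB(V285A) scored lower on methylated than on unmethylated DNA at many members. The groups carry different array identifiers, so methylation and identifier cannot be told apart. Of 48, 30 were called lower and 0 higher, against 3.75% and 3.84% of all 8-mers, with a median difference of -4.48 (all 8-mers 0.00616) and all 48 negative. The most negative was gTGACGTa, at 22.4 and 19.8 on unmethylated and 11.6 and 12.3 on methylated DNA, a difference of -9.20 ± 2.43 (SE, adjusted p = 0.0274). The octamer differed by -4.34 ± 3.05 (adjusted p = 0.394) and was not called, and its sign turned on the log2 signal (0.17) and with normexp (0.792). The smallest difference was that of TGACGTga, at 10.1 and 9.65 against 8.67 and 7.66 (-1.69 ± 1.02, adjusted p = 0.316). By the base before the core, 6 of 8 members with G, 7 of 8 with T and 6 of 8 with C were called. Of the 8 with A, 1 was. Median differences were -6.51 with G, -3.44 with T, -4.17 with C and -4.66 with A, so the shares do not follow the size of the change. Whether these shares differ was not tested. All calls at the members were lost without unmethylated CEBPB(V285A) replicate 1 or either methylated CEBPB(V285A) array. Most were lost without unmethylated replicate 2. In these fits, which leave 1 array in a group, fewer of all 8-mers were called as well. The median difference ran from -5.17 to -3.98 with 1 array left out. The count of called members was 2 with normexp correction (4.75% of all 8-mers called in either direction). The log2 signal over the array median gave 31 (30.5% of all 8-mers), with 44 of 48 members negative. Among the 48 TTACGT 8-mers 2 were lower, and among the 144 with TGACG and another base 53 were. The scaled median absolute deviation that divides the score was 0.206 and 0.200 on the unmethylated arrays. On the methylated arrays it was 0.253 and 0.265, and its part in the result was not tested.

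For CREB1(A297V) most members had no call between methylated and unmethylated DNA. Array identifier and slide layout also differed between these groups and cannot be told apart from methylation. Of 48, 2 were called higher and 0 lower, against 10.5% and 11.4% of all 8-mers, with a median difference of 1.99 (all 8-mers 0.0209) and 46 members positive. The 2 called, named after their values were seen, were aTGACGTa (6.17 and 9.46 against 14.98 and 13.9, difference 6.62 ± 2.08 SE, adjusted p = 0.0282) and aTGACGTc (2.23 and 7.26 against 11.8 and 9.23, difference 5.79 ± 1.96, adjusted p = 0.0406). The octamer had the most positive difference, at 7.03 ± 3.05 (adjusted p = 0.105), with 12.7 and 16.4 against 21.3 and 21.9, and -0.162 with normexp. The 2 negative differences were those of tTGACGTt, at -0.360 ± 0.837 (adjusted p = 0.795), and ccTGACGT, at -0.141 ± 0.798 (adjusted p = 0.922), the latter named after its value was seen. On the log2 signal over the array median 36 members were higher and 0 lower, with 30.3% of all 8-mers called in either direction. The unmethylated arrays of this mutant had the lower signal over background (2.76 and 1.79 against 5.09 and 5.03), and the part of this in the result was not tested. Both calls were lost without unmethylated CREB1(A297V) replicate 1 or any 1 of the 4 methylated arrays. Fewer of all 8-mers were called in these fits as well. Calls were added without unmethylated CREB1(A297V) replicate 2 or either CREB1 array. Each of these fits leaves 1 array in a group, so its counts are not given. The median difference ran from 0.925 to 3.05 (without unmethylated CREB1(A297V) replicates 1 and 2).

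On methylated DNA the mutants lay closer together. CEBPB(V285A) was higher than CREB1(A297V) at 9 members and lower at 0, against 6.82% and 5.60% of all 8-mers, with a median difference of 2.17 (all 8-mers 0.0562). The most positive was cTGACGTc, at 9.84 and 7.71 against 3.84 and 2.36, a difference of 5.67 ± 1.24 (SE, adjusted p = 0.00496). Of the 8 members with C before the core 5 were called, of the 8 with A 1, and of the 8 with G or the 8 with T 0. Median differences were 3.04 with C, 2.51 with A, 2.60 with G and 1.44 with T. Whether these shares differ was not tested. The octamer had the most negative difference, -2.68 ± 3.05 (adjusted p = 0.621), with an interval of -9.03 to 3.68, and its sign turned on the log2 signal (0.62), with normexp (1.96) and with the authors' scores (9.75). Members with A after the core had a median difference of 0.204 and 0 of 8 called. The 4 arrays share an identifier, and a fit of them alone called 27 higher, with 26.9% of all 8-mers called in either direction. Of the probes, 100% kept the slide positions of the first array for CEBPB(V285A) and 0% for CREB1(A297V). Slide layout and protein therefore cannot be told apart here. All calls at the members were lost without methylated CEBPB(V285A) replicate 1 or methylated CREB1(A297V) replicate 2. Most were lost without methylated CEBPB(V285A) replicate 2 or methylated CREB1(A297V) replicate 1. In these fits, which leave 1 array in a group, fewer of all 8-mers were called as well. The median difference ran from 1.47 to 2.93 with 1 array left out. On the log2 signal the count of called members was 43, with 30.5% of all 8-mers called. Among the 144 8-mers with TGACG and another base 58 were higher and 2 lower. Among the 48 with TTACGT 7 were higher and 0 lower, and among the 256 with TTGCG 131 were higher and 2 lower.

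The change from unmethylated to methylated DNA differed between the mutants. The unmethylated groups also carry different array identifiers, which cannot be told apart from this difference. The interaction term, the change of CEBPB(V285A) minus that of CREB1(A297V), was called lower at 21 members and higher at 0, against 1.69% and 1.56% of all 8-mers. Its median was -6.14 (all 8-mers 0.0210), with all 48 members negative. It was most negative at gTGACGTa, at -14.2 ± 3.43 (SE, adjusted p = 0.0316), where CEBPB(V285A) went from 22.4 and 19.8 to 11.6 and 12.3 and CREB1(A297V) from 7.05 and 11.6 to 13.0 and 15.7. At the octamer it was -11.4 ± 4.31 (adjusted p = 0.139), and 0.954 with normexp. The smallest was at tTGACGTt, at -2.14 ± 1.18 (adjusted p = 0.314). By the base after the core, 6 of 8 members with A were called, 4 of 8 with G, 3 of 8 with C and 2 with T; these shares were not compared by a test. All calls at the members were lost without unmethylated CEBPB(V285A) replicate 1 or any 1 of the 4 methylated arrays. Most were lost without unmethylated CEBPB(V285A) replicate 2. Fewer of all 8-mers were called in these fits as well. Calls were added without either CREB1 array or unmethylated CREB1(A297V) replicate 2. Each of these fits leaves 1 array in a group, so its counts are not given. The median ran from -7.17 to -5.00 with 1 array left out. The count of called members was 12 with the authors' deposited scores and 7 with quantile normalization. It was 0 with normexp correction or from each 8-mer's own residual SD. In these settings 1.44%, 2.84%, 3.07% and 0.00912% of all 8-mers were called in either direction. Among the 144 8-mers with TGACG and another base 41 were lower and 0 higher. Among the 48 with TTACGT 5 were lower and 0 higher.

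A second CG, which M.SssI can also methylate, was present in 2 members, TGACGTcg and cgTGACGT. For CEBPB(V285A), TGACGTcg went from 13.9 and 13.9 to 10.98 and 9.56, and cgTGACGT from 16.7 and 15.9 to 10.8 and 9.26. For CREB1(A297V), TGACGTcg went from 1.41 and 3.84 to 6.27 and 3.67, and cgTGACGT from 2.26 and 5.75 to 9.67 and 5.05. Differences were negative for CEBPB(V285A) at all 48 members, so these 2 do not stand apart in direction. The enzyme acts on any CG of a probe, also outside the 8-mer. How far the probes were methylated was not measured here.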

How the data were processed

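Each array's table of spots holds, per the file headers, the median signal intensity and median background intensity of each probe on a linear scale. Scanner settings are not given in the sources used here. A matrix deposited by the authors gives a Z-score per 8-mer, a score whose steps are not given in the sources used here. Its columns carry the arrays' descriptions, and it served as an alternative. Members were found by sequence. For each array, log2 signal was lowered by the median of 15 by 15 spots around it, the median over all probes with the 8-mer (at least 8) was taken, and a robust Z computed. Nothing was background-subtracted or quantile-normalized in this score. Group comparisons used lmFit and eBayes of limma 3.58.1 (R 4.3.3), the prior variance following asinh of the mean Z, over all 10 arrays, 5 residual degrees of freedom, 7 comparisons, two-sided. The number of arrays limits the precision. The scoring (Python 3.11.15) and the fit were tested on simulated data.

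The members, lists and tests were chosen with earlier results of these data known. Differences are printed, per comparison, for the full octamer and for the members with the most positive and the most negative difference; exceptions are named as such. Alternatives were other scales, background corrections, probe summaries, variance priors, left-out arrays, a replicate block and fits within an array identifier.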

Additional observations from a re-analysis of the deposited data

Results flagged for a closer look

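The change with methylation differed between CEBPB(V285A) and CREB1(A297V) by a test of the difference itself. The interaction term of the limma fit was called at 21 of 48 members, all lower for CEBPB(V285A), against 1.69% lower and 1.56% higher of all 8-mers. With normexp correction or from each 8-mer's own residual SD it was called at 0 members. Among the 144 8-mers with TGACG and another base 41 were lower and 0 higher. Array identifier and group cannot be told apart in this term. The most negative member was gTGACGTa, at -14.2 ± 3.43 (SE, adjusted p = 0.0316 by limma). All calls at the members, this one included, were lost without unmethylated CEBPB(V285A) replicate 1 or any 1 of the 4 methylated arrays. Fewer of all 8-mers were called in those fits as well.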

How the results depend on the processing

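The count of called members kept within 1.5 times under every alternative only for CREB1(A297V) against CREB1 (36 to 48) and for both mutants on unmethylated DNA (43 to 48). For CEBPB(V285A) against CREB1, where 0 were called, it was 20 on the log2 signal over the array median, 40 with normexp, 1 with the authors' deposited scores, 7 with the mean over probes, 1 with quantile normalization and 1 without a variance trend. In that order, 13.3%, 6.51%, 1.78%, 20.2%, 5.81% and 5.02% of all 8-mers were called in either direction. For methylation of CEBPB(V285A) (30) it was 2 with normexp, 19 with quantile normalization and 0 from each 8-mer's own residual SD. The shares of all 8-mers called were 4.75%, 7.47% and 0.0638%. For methylation of CREB1(A297V) (2) it was 36 on the log2 signal, 11 without a trend, 1 with the mean over probes, and 0 with signal over background, normexp, the authors' scores, a trend on the mean Z or the own SD. Of all 8-mers, 30.3%, 19.0%, 35.0%, 8.27%, 18.7%, 9.27%, 21.6% and 7.40% were called in these settings. For the mutants on methylated DNA (9) it was 43 on the log2 signal, 16 with normexp and 15 with the mean over probes. It was 26 with quantile normalization, 16 without a trend, 0 from the own SD and 27 from the 4 arrays of 1 identifier. In that order, the shares of all 8-mers called in either direction were 30.5%, 10.1%, 34.9%, 11.6%, 10.98%, 3.19% and 26.9%. For the interaction (21) it was 43 on the log2 signal, 0 with normexp, 12 with the authors' scores, 7 with quantile normalization, 13 with a trend on the mean Z, 32 without a trend and 0 from the own SD. All 8-mers were called at shares of 8.05%, 3.07%, 1.44%, 2.84%, 3.07%, 2.49% and 0.00912%. With 1 array left out the counts ran, in the order of the comparisons above, from 0 to 1, 47 to 47, 45 to 47, 0 to 37, 0 to 5, 0 to 13 and 0 to 35. Some signs turned. For CEBPB(V285A) against CREB1 the median became 0.43 on the log2 signal, 0.602 with signal over background, 6.40 with the authors' scores and, with 1 array left out, ran from -2.08 (without CREB1 replicate 1) to 0.602 (without replicate 2), and TGACGTaa became -3.75 with normexp and -0.777 with the mean over probes. For CREB1(A297V) against CREB1, TGACGTaa became 2.41 with quantile normalization and ran from -5.64 to 0.135 without unmethylated CREB1(A297V) replicate 2 or 1. For methylation of CEBPB(V285A) the octamer became 0.17 on the log2 signal and 0.792 with normexp, and TGACGTga 0.11 and, with quantile normalization, 0.342. For methylation of CREB1(A297V), tTGACGTt became 0.13 on the log2 signal, ran from -1.44 to 0.716 with 1 array left out (without unmethylated replicates 1 and 2) and was 0.0741 without methylated replicate 2, and the octamer -0.162 with normexp. For the mutants on methylated DNA the octamer became 0.62 on the log2 signal, 1.96 with normexp and 9.75 with the authors' scores, and for the interaction 0.954 with normexp. The cause was not tested. Replicate numbers did not pair the arrays uniformly. Correlations of deviations over 10 group pairs ran from -0.213 to 0.333 over all 8-mers and from -0.324 to 0.568 over the members. The highest in both was CREB1 with unmethylated CREB1(A297V), which share an array identifier. A fit with the replicate block called 0, 47, 47, 30, 3, 10 and 24 members. It called 7.18%, 20.2%, 27.0%, 8.57%, 23.2%, 13.4% and 4.24% of all 8-mers in either direction.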
